A study of Mus musculus and Mus musculus
Oryx dammah with 30 samples.

Results

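The genes described here are tied to the first fate choice of the mouse embryo. They are Carm1, Sox21, Sox2, Prdm14, Cdx2 and Neat1, and were chosen by gene name from tables of RNA-seq of nuclear transfer (NT) embryos. All 6 were found, among 53023 genes listed in the tables of both four-cell experiments and 55364 in the two-cell table. C2C12 cells, a line of mouse myoblasts from the C3H strain, had been fused with embryos made from C57BL/6 oocytes and DBA/2 sperm. Every group received demecolcine at 0.1 µg/ml, an agent that stops cell division and arrests embryos at G2/M. Where fusion was done at an earlier and a later time, the paper places the earlier before DNA replication was complete. Those embryos were thus not yet at G2/M when fused. In the first experiment four-cell embryos were fused at 46 hours post insemination (hpi), kept in culture for 24 h in the presence or absence of α-amanitin, an inhibitor of RNA polymerase II, and sequenced as pools of 3 embryos (3 libraries plus and 3 minus). In the next, 2 groups called D and DR, pools of 4 embryos without α-amanitin, were set up to compare fusion at 40 and at 46 hpi, that is with and without DNA replication after transfer, and the labels do not say which letter stands for which (3 libraries each). In the last, two-cell embryos were fused at 21 or 30 hpi and kept for 24 h in either α-amanitin state, in pools of 5 embryos (6 libraries plus and 6 minus). The two-cell columns form 2 sets, NT with Am and R with RAm, of 3 libraries a state each, and do not say which set was fused early or late, so the letters are kept. R was taken as the state without α-amanitin because its counterpart is RAm.

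CARM1 is an arginine methyltransferase that marks histone H3 and coactivates transcription. In the normal four-cell embryo its activity differs between blastomeres, and cells with more of it tend to keep pluripotency genes active and to enter the inner cell mass. PRDM14 is a chromatin regulator that works with CARM1, SOX2 is the pluripotency factor whose targets include Sox21, SOX21 is a repressor that holds back Cdx2, and CDX2 is the transcription factor of the trophectoderm. Neat1 is the long noncoding RNA around which paraspeckles form, nuclear bodies in which CARM1 is also found.

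In mm10, Carm1 (ENSMUSG00000032185) lies at chr9:21546894-21592623 on the plus strand and Sox21 (ENSMUSG00000061517), a gene of a single exon, at chr14:118233232-118237030 on the minus strand. Sox2 (ENSMUSG00000074637) lies at chr3:34650405-34652461 on the plus strand and Prdm14 (ENSMUSG00000042414) at chr1:13113457-13127163 on the minus strand. Cdx2 (ENSMUSG00000029646) is at chr5:147300805-147307270 and Neat1 (ENSMUSG00000092274), annotated as a lincRNA of 20771 bases, at chr19:5824708-5845478, both on the minus strand. In GENCODE vM21 the noncoding gene Gm4675 overlaps Sox21 on the other strand, Yipf2 overlaps Carm1 on the other strand, and Sox2 lies within Sox2ot on the same strand. Neat1 overlaps Gm27533, Gm27505 and Gm28006 on its own strand, and reads were divided between features in the D and DR and the two-cell tables. The library kit does not mark strand, so reads of Sox21 and Gm4675, or of Carm1 and Yipf2, cannot be told apart where they overlap.

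RefSeq (GRCm38.p6) gave promoter sequence for 3 of the 6 genes, and the bases before each start are shown because these genes end up at different levels below: Sox21 was detected in every library without α-amanitin, whereas Sox2 and Cdx2 were at or near 0. The sequences run 5′ to 3′ on the strand of the gene and cover chr14:118237031-118237280 for Sox21, chr3:34649745-34649994 for Sox2 and chr5:147307271-147307499 for Cdx2. For Sox2 the start in RefSeq lies upstream of the start in GENCODE given above, and the stretch ends before the RefSeq start.
Sox21: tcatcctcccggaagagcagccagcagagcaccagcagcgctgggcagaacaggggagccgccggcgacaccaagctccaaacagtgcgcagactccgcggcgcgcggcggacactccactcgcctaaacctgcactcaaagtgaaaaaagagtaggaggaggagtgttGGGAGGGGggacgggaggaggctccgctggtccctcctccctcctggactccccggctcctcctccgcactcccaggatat
Sox2: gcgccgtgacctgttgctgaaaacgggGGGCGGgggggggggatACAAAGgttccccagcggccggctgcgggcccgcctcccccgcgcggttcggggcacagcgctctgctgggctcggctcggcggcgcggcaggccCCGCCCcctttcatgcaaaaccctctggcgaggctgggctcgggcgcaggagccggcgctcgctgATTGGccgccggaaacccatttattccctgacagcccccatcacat
Cdx2: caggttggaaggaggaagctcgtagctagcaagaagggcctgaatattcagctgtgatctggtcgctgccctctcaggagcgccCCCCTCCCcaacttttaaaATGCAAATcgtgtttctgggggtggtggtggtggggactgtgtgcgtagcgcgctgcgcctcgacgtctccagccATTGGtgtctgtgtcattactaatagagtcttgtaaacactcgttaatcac
Capitals mark matches, on either strand, to the GC box, spelled GGGCGG, to the TATA box, spelled TATAAA, to the CCAAT box, to SOX cores with the letters ACAATG or else with the letters ACAAAG, to the octamer, spelled ATGCAAAT, and to a C-rich string, spelled CCCCTCCC, of the kind bound by zinc finger factors such as ZFP281. The Sox21 stretch holds only the C-rich string, which 10.9% of all 32851 promoters hold over the 250 bases before their start. The Sox2 stretch holds the GC box, found in 32.7% of promoters, at 2 places, with a CCAAT box (33.8%) and the second SOX core (16.5%), and the Cdx2 stretch a CCAAT box, the octamer (1.60%) and the C-rich string. Neither a TATA box (12.4%) nor the other SOX core (10.7%) lies in the 3 stretches. Their GC content was 65.2% for Sox21, 72% for Sox2 and 53.7% for Cdx2, beside a median of 52.4% over all promoters. These matches describe the letters only, and none overlaps another.

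Read depth was low for genes at this level. The libraries held 1136771 to 3101002 reads in the four-cell α-amanitin experiment, 2603946 to 19181387 in D and DR and 4712268 to 10503779 in the two-cell experiment, and values are in FPKM, fragments per kilobase of gene per 1000000 reads. Markers of the egg and embryo such as Zp3, Gdf9 and Bmp15 dominated, with a summed FPKM over 12 genes of 8743 to 9940 without α-amanitin and 12205 to 16141 with it at the four-cell stage. Summed FPKM of 8 myoblast markers, Pax7 at 0 throughout, was 5.53 to 9.31 without and 4.27 to 20.3 with α-amanitin at the four-cell stage, 4.16 to 11.4 in DR and 6.43 to 71.4 in D, and 1.07 to 26.6 without and 0.407 to 9.74 with α-amanitin at the two-cell stage, where Myog was at 0 too. In DR and D the sums of the egg and embryo markers did not overlap (3393 to 4040 and 4576 to 5743), nor did those of 11 mesenchymal markers (258 to 430 and 450 to 558), and 7 markers of the two-cell stage summed to 49.8 to 299 and 22.3 to 2323. The two-cell stage markers did not overlap between α-amanitin states, with sums of 20.4 to 88.6 without and 0 to 10.3 with it at the four-cell stage and of 77.3 to 809 and 12.5 to 41.0 at the two-cell stage. Mesenchymal sums in the four-cell α-amanitin experiment were 221 to 720 without and 185 to 2253 with it. In two-cell embryos the summed FPKM of the egg and embryo markers was 7298 to 12337 without and 1305 to 7790 with α-amanitin, and that of the mesenchymal markers 164 to 4535 and 1197 to 2532. Gene by gene the egg and embryo markers went the other way: as deposited, 1 of 12 was higher and 10 were lower without α-amanitin (adjusted p under 0.05, limma). Of all genes tested, 38.9% were higher and 8.51% lower. The median log2 change of these markers was −1.41, against 0.67 for all genes. After scaling to RNA spike-ins 1 was higher and 1 lower, beside 71.4% and 1.63% of all genes. Of 8 cumulus cell markers, 7 were at 0 in every library of the four-cell α-amanitin experiment. In DR and D only Fshr was, and the 8 summed to 0.107 to 0.345 and 0.207 to 0.483 FPKM. At the two-cell stage only Ptx3 was at 0 throughout, and the sums were 0.172 to 2.90 without and 0.128 to 4.91 with α-amanitin. Each pool holds nuclei of donor and embryo, whose transcripts were not separated here, and the part of the marker differences in the values below was not tested. The tables were normalised separately, so levels in different experiments stand side by side without a test.

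**Figure D1:**
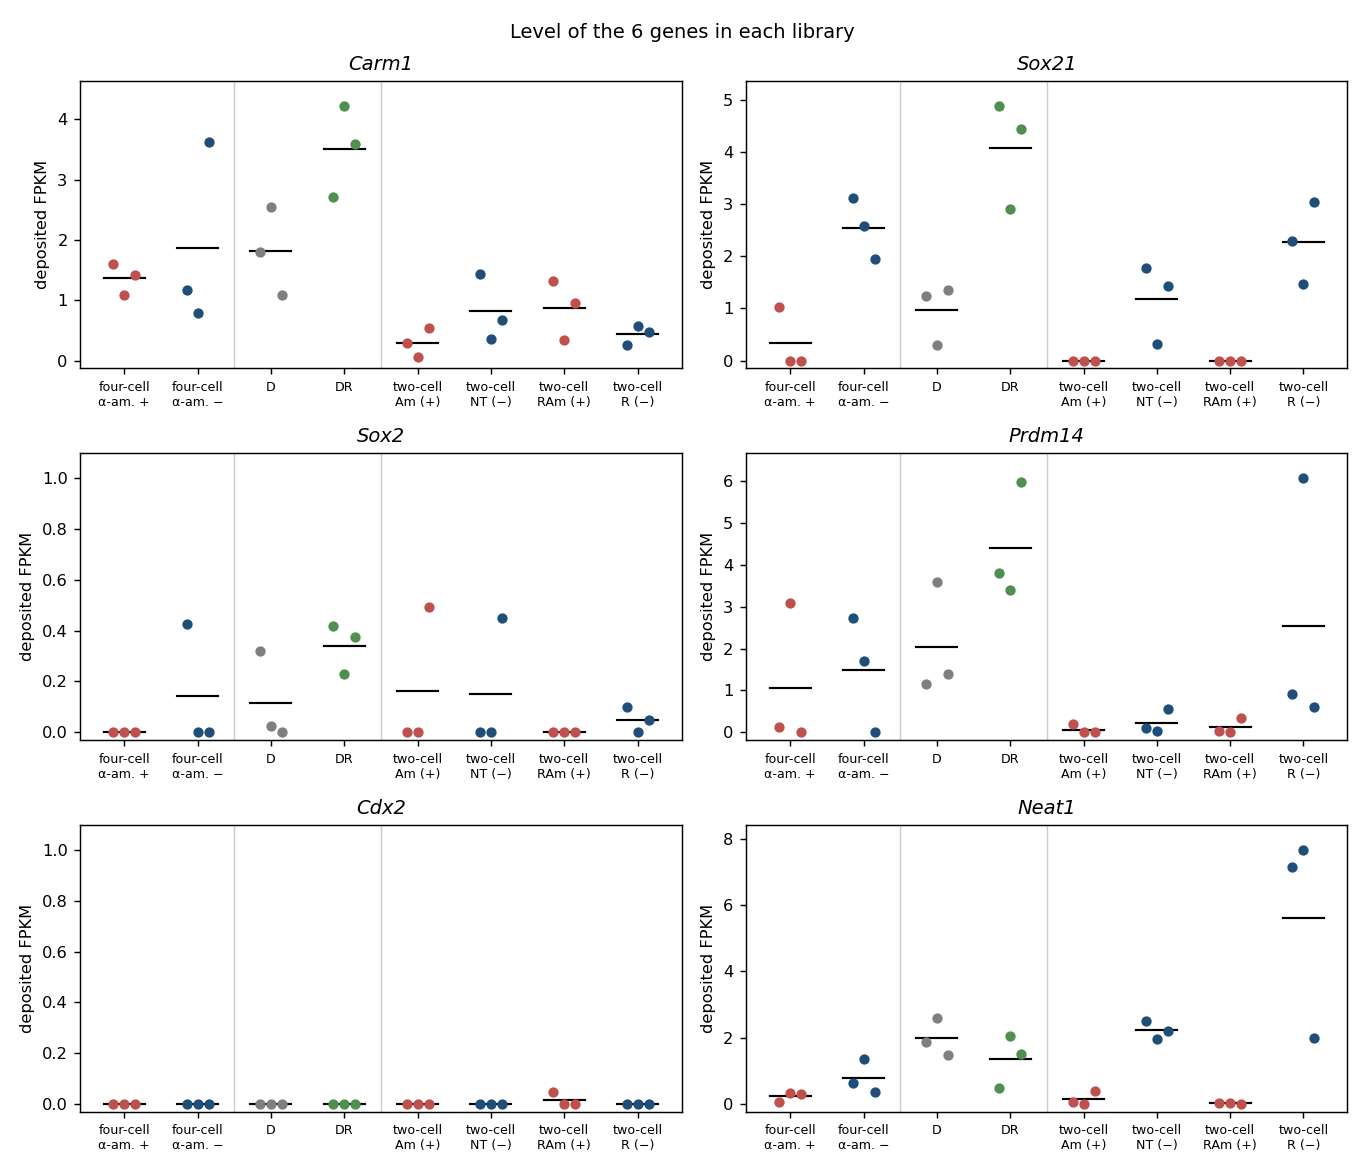
Deposited FPKM (y axis) of each gene in each library (points), by experiment, α-amanitin state or letter group (x axis); bars are group means, and each panel has its own scale. Sox21 was at 0 in all 6 two-cell libraries with α-amanitin and between 0.326 and 3.04 in the 6 without, while Cdx2 was above 0 in a single library, at 0.0468.

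Sox21 and Neat1 were the members whose libraries with and without α-amanitin stood apart. In the four-cell experiment 3 of the 6 genes passed the filter, which asked for 1 FPKM or more in 3 or more libraries, and 1 of these 3, Sox21, was called (limma, adjusted p under 0.05), where 12.2% of all 9884 genes tested were called 11.1% higher and 1.13% lower without the inhibitor, and 6.57% called with a change of at least 4-fold. Among the 3 members tested, the groups stood apart for 1, Sox21, against 35.2% of all genes tested, 27.6% with the untreated group higher. They did so for Neat1 too, which was below the filter and is not part of that share. In the two-cell experiment the same pair, Sox21 and Neat1, were the 2 genes that passed the filter, and both were called, where 73% of 17196 genes were called 71.4% higher and 1.63% lower without α-amanitin, and 34.4% called with a change of at least 4-fold. The groups stood apart for these 2 genes, against 19.2% of the genes tested, 16.3% with the untreated group higher. Both genes passed the two-cell filter through the untreated libraries alone, where they were high, so the filter favoured a call in that direction and the count of 2 in 2 is a description. Between DR and D, 4 genes were tested and 0 were called, as for all 14570 genes tested (0%), with 88 genes at an unadjusted p under 0.05 in limma. Changes are given on the log2(FPKM + 1) scale, which understates the change of low genes, as minus less plus α-amanitin or as DR less D. The scaling moved all genes together: the median log2 change of all genes tested was 0.37 in the four-cell experiment and 0.13 with median of ratios scaling, 1.49 in the two-cell experiment after spike-in scaling, 0.67 as deposited and 0.24 with median of ratios scaling, and in DR less D −1.41 after spike-in scaling, 0.016 as deposited and −0.027 with median of ratios scaling. Less these medians, two-cell Sox21 stood at 0.38, 0.69 and 0.89 and two-cell Neat1 at 1.14, 1.34 and 1.47 after spike-in scaling, as deposited and with median of ratios scaling.

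Sox21, the repressor of Cdx2, was lower with α-amanitin at both stages. With α-amanitin, four-cell embryos had a Sox21 FPKM of 1.02, 0 and 0, and without it 3.12, 2.59 and 1.95. Every untreated library thus stood above every treated library, and the 1.02 was made of 12 reads. Untreated libraries averaged 2.55 ± 0.587 FPKM and treated ones 0.340 ± 0.588 (SD, n = 3 each), a mean that came from 1 library and lay under the floor of 3 reads per library (0.482 FPKM on average). The log2 change of Sox21 was 1.48 (SE 0.41, adjusted p = 0.0492, limma). The exact permutation test gave p = 0.1 (two-sided), the smallest that 3 against 3 libraries allow. The call sat at the edge: leaving out any library but S16 raised the adjusted p of Sox21 in limma to between 0.117 and 0.190, and it fell to 0.0227 without S16. The log2 change ran from 1.31 to 1.82 in these fits. Median of ratios scaling gave Sox21 a log2 change of 1.36 and an adjusted p of 0.0714 in limma. The untreated libraries, where Sox21 was high, were enough to carry it through the filter, which S16 at 1.02 FPKM reached too. With no filter the adjusted p of Sox21 was 0.192 in limma.

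In two-cell embryos Sox21 had no read in any of the 6 libraries with α-amanitin. Without it the FPKM was 1.77, 0.326 and 1.42 in the NT columns and 2.30, 1.47 and 3.04 in the R columns. All 6 untreated libraries were therefore above all 6 treated ones, with NT2 the lowest at 13 reads and r2 the highest at 113. The mean without α-amanitin was 1.72 ± 0.915 (SD, n = 6), at least 15.4-fold higher than a floor of 3 reads per library in the treated group. After scaling to the ERCC spike-ins, RNAs of a diluted mix added to each lysate, the log2 change of Sox21 was 1.87 (SE 0.35, adjusted p = 0.000306, limma), and on FPKM as deposited it was 1.37 (SE 0.25, adjusted p = 0.00134), where 47.4% of genes were called, 38.9% higher and 8.51% lower. The exact permutation test, which shuffled the libraries of both column sets together, gave 0.00216 (two-sided), the smallest it can give here. With the column set as a term, the adjusted p of Sox21 was 0.000211 in limma after spike-in scaling. Within the NT columns Sox21 was at least 9.12-fold, and within the R columns at least 23.8-fold, higher than that floor. The α-amanitin change was larger by 1.24 on the log2 scale in the R set than in the NT set (SE 0.54, adjusted p = 0.0658, limma interaction), which did not pass the threshold, where 53.2% of genes did.

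**Figure D2:**
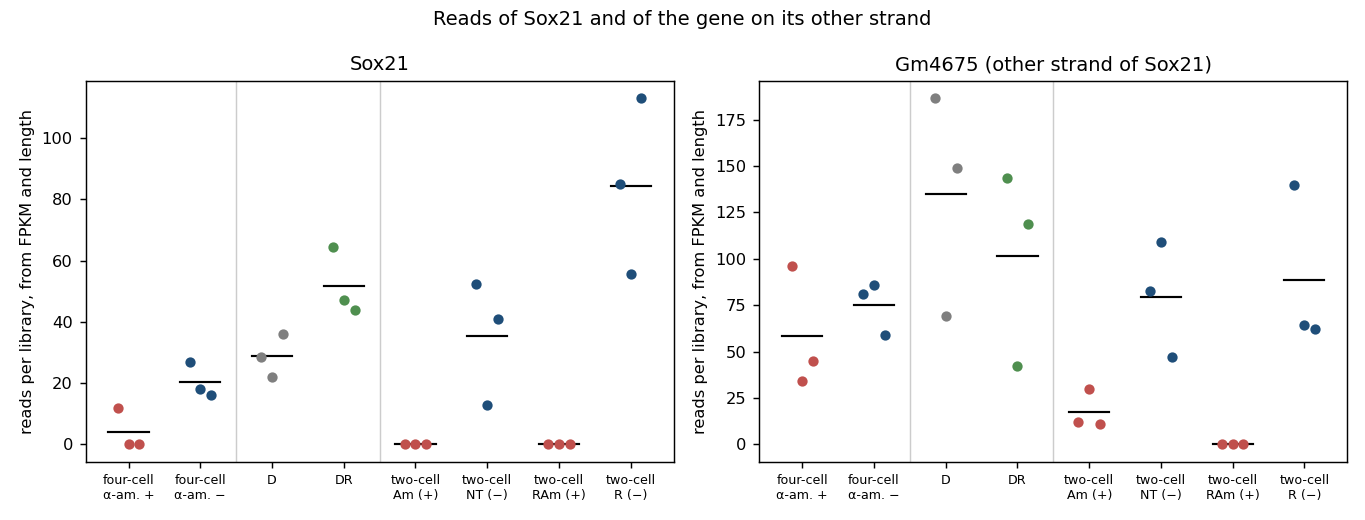
Reads per library (y axis) assigned to Sox21 and to Gm4675, the noncoding gene on its other strand, by experiment and group (x axis); points are libraries and bars are means. Gm4675 kept 34 to 96 reads in the four-cell libraries with α-amanitin, of which 2 had no Sox21 read, while in the RAm libraries both genes were at 0.

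Between DR and D, Sox21 stood above the median change of all genes under each scaling, and no test called it. As deposited, FPKM was 4.88, 2.91 and 4.45 in DR and 1.24, 0.302 and 1.36 in D. The groups did not overlap, as was the case for 12.2% of genes tested and, with DR higher, for 8.21%, and the means were 4.08 ± 1.03 and 0.966 ± 0.579 (SD, n = 3 each), a ratio of 4.22. The log2 change of Sox21 in those values was 1.40 (SE 0.34, adjusted p = 0.788, limma) and the exact permutation p was 0.1, again the smallest possible. Scaled to the spike-ins, the change was 0.21 (SE 1.52, adjusted p = 0.897, limma). Less the median of all genes, Sox21 was at 1.62 after spike-in scaling, 1.38 as deposited and 1.39 with median of ratios scaling. Spike-ins made up 0.0181% to 0.776% of the reads of these libraries and the scaling factors ran from 0.0945 to 5.65, so the scaled values of a group spread widely.

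Gm4675 lies on the other strand of Sox21. In four-cell embryos Gm4675 had an FPKM of 10.1, 9.75 and 9.23 with and 11.6, 15.3 and 8.89 without α-amanitin. These groups overlapped, and the log2 change of Gm4675 was 0.25 (SE 0.35, adjusted p = 0.674, limma). In two-cell embryos Gm4675 was 0.830, 1.05 and 0.606 in the Am libraries and 0 in the RAm libraries, against 2.02 to 3.44 in NT and 2.07 to 4.70 in R. Its log2 change there was 2.16 (SE 0.33, adjusted p = 8.86e-05, limma). In DR Gm4675 was 13.4, 3.22 and 14.9 and in D 10.03, 1.17 and 6.97, with overlap. How much of either gene's reads came from the other strand was not tested.

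Neat1, the scaffold RNA of paraspeckles, was lower with α-amanitin in two-cell embryos. At the two-cell stage its FPKM was 0.0749, 0.0155 and 0.384 in the Am libraries and 0.0305, 0.0359 and 0 in the RAm libraries. Without α-amanitin it was 2.51, 1.96 and 2.19 in NT and 7.14, 7.65 and 2.00 in R. All 6 untreated libraries lay above all 6 treated ones, with R3 and r1 far above the others. The means were 3.91 ± 2.71 and 0.0901 ± 0.146 (SD, n = 6 each), a ratio of 43.4, and without Am3 the treated mean was 0.0313 and the ratio 125. Neat1 rose by 2.64 on the log2 scale after spike-in scaling (SE 0.40, adjusted p = 8.39e-05, limma) and by 2.01 as deposited (SE 0.31, adjusted p = 0.000475). The exact permutation p was 0.00216, the smallest possible with both column sets shuffled together. With the column set as a term, the adjusted p of Neat1 was 7.83e-05 in limma after spike-in scaling. Its α-amanitin change was larger in the R set than in the NT set by 1.66 after spike-in scaling (SE 0.57, adjusted p = 0.0241, limma interaction), where 50.5% of all genes were called larger in the R set and the median difference of all genes was 1.42. Less that median, Neat1 was at 0.23. On deposited FPKM the difference between the sets was 1.06 (adjusted p = 0.111) and with median of ratios scaling 0.95 (adjusted p = 0.146), neither past the threshold in limma. Less the medians of these scalings, Neat1 was at 0.29 and 0.78.

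In four-cell embryos Neat1 stayed below the filter. Its FPKM was 0.0776, 0.339 and 0.303 with α-amanitin, from 5 to 10 reads, and 0.634, 1.37 and 0.378 without, from 17 to 52 reads. The groups did not overlap but came close, with 0.339 beside 0.378. The ratio of the means was 3.31, the exact permutation p was 0.1, and limma with no filter gave Neat1 a log2 change of 0.50 (adjusted p = 0.520). In DR Neat1 was 0.485, 2.05 and 1.52 and in D 1.87, 2.59 and 1.48, which overlapped. The log2 change of Neat1 was −1.56 scaled (SE 1.54, adjusted p = 0.713, limma) and −0.39 as deposited (SE 0.35, adjusted p = 0.843).

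Carm1 transcripts were present with and without α-amanitin, and no test over all genes called a change. In four-cell embryos Carm1 FPKM was 1.60, 1.09 and 1.43 with and 1.18, 0.788 and 3.62 without the inhibitor. The untreated libraries enclosed the treated ones, with S7 the highest and S17 the lowest of the 6. The means were 1.86 ± 1.54 and 1.37 ± 0.258 (SD, n = 3 each), and the log2 change of Carm1 was 0.15 (SE 0.45, adjusted p = 0.852, limma). Less the median of all genes it was −0.22, and −0.16 with median of ratios scaling, and without S7 the log2 change was −0.26. Yipf2, on the other strand, was at 0 in the treated and at 0.202 to 1.49 in the untreated libraries.

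In two-cell embryos Carm1 was lower than the filter allows. Its FPKM was 0.284, 0.0590 and 0.540 in Am and 1.44, 0.356 and 0.670 in NT. In the other set it was 1.32, 0.344 and 0.958 in RAm and 0.251, 0.570 and 0.475 in R. As deposited, the treated mean of that set was the higher, at 0.873 against 0.432, and after spike-in scaling it was the lower, at 0.430 against 0.892. Over all 12 libraries the means were 0.626 ± 0.424 without and 0.584 ± 0.469 with α-amanitin (SD, n = 6 each), a ratio of 1.07 with an exact permutation p of 0.803. Spike-in scaling moved this comparison: the mean difference of Carm1 became 0.58 on the log2 scale with an exact permutation p of 0.00866, and an adjusted p of 0.0642 in limma with no filter. Spike-ins took 6.54% to 11.3% of the reads in treated and 2.38% to 6.26% in untreated two-cell libraries, and the median change of all genes moved with the scaling as given above. Each two-cell pool held 5 embryos in either state, and whether cells were lost or RNA per cell was lower was not tested.

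Between DR and D, Carm1 FPKM was 2.71, 4.22 and 3.60 in DR and 1.80, 2.55 and 1.09 in D. The groups did not overlap, by a narrow gap between 2.71 and 2.55, and the ratio of the means was 1.94. The log2 change of Carm1 was 0.70 as deposited (SE 0.31, adjusted p = 0.788, limma) and −0.81 after spike-in scaling (SE 1.71, adjusted p = 0.715). The sign turned with the shift of all genes: less their median, Carm1 was at 0.61 after spike-in scaling and 0.69 as deposited.

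Prdm14, the partner of CARM1, varied widely between libraries of a group. In four-cell embryos its FPKM was 0.126, 3.09 and 0 with and 2.74, 1.71 and 0 without α-amanitin. Each group held a library without a read, and the log2 change of Prdm14 was 0.38 (SE 0.66, adjusted p = 0.743, limma). In DR Prdm14 was 3.81, 3.39 and 5.99 and in D 1.16, 3.60 and 1.40, overlapping because D4 stood above DR2. Its log2 change was 0.88 as deposited (SE 0.38, adjusted p = 0.788, limma) and −0.53 scaled (SE 1.76, adjusted p = 0.788), which less the median of all genes were 0.86 and 0.88.

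At the two-cell stage Prdm14 was low in most libraries, and r1 stood apart. FPKM was 0.193, 0 and 0 in Am, 0.0998, 0.0371 and 0.566 in NT, 0.0413, 0 and 0.335 in RAm and 0.923, 6.08 and 0.599 in R. The 6.08 of r1 rested on 155 reads, where no other two-cell library had more than 23. The means were 1.38 ± 2.32 without and 0.0948 ± 0.139 with α-amanitin (SD, n = 6 each), and the groups overlapped. Without r1 the untreated mean was 0.445. The exact permutation p of Prdm14 was 0.0325 as deposited and 0.00866 scaled, not adjusted for other genes, and limma with no filter gave an adjusted p of 0.0954.

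Sox2 and Cdx2, the factors of the inner cell mass and the trophectoderm, were at the limit of detection. In the four-cell α-amanitin experiment Sox2 was above 0 only in S15, at 0.427 from 2 reads. In DR it was 0.419, 0.229 and 0.373 and in D 0.321, 0.0253 and 0, from at most 4 reads a library. In two-cell embryos Sox2 was at 0 in 8 of the 12 libraries, and the others were Am3 at 0.493, NT3 at 0.449, R3 at 0.100 and r2 at 0.0498. The exact permutation p of Sox2 at the two-cell stage was 0.424 after scaling. Cdx2 had no read in 23 of the 24 libraries and 1 read in RAm1. A difference in Sox2 or Cdx2 was not detectable at this depth, and neither passed the filter in any experiment.

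The order of levels among the members, compared per length within each group, differed between experiments of the same stage as well as between stages. In the four-cell α-amanitin experiment, untreated embryos had Sox21 first at a mean FPKM of 2.55, followed by Carm1 at 1.86, Prdm14 at 1.48, Neat1 at 0.794, Sox2 at 0.142 and Cdx2 at 0, and each neighbour in that order overlapped with the next. In DR the order was Prdm14 at 4.40, Sox21 at 4.08 and Carm1 at 3.51, which overlapped, then Neat1 at 1.35, Sox2 at 0.340 and Cdx2 at 0, without overlap from Carm1 on. In D it was Prdm14 at 2.05, Neat1 at 1.98, Carm1 at 1.81, Sox21 at 0.966, Sox2 at 0.115 and Cdx2 at 0, all overlapping with the next. The place of Sox21 thus differed among the untreated four-cell groups.

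In untreated two-cell embryos the 2 column sets differed in order below Neat1. In NT the means were 2.22 for Neat1, 1.17 for Sox21, 0.821 for Carm1 and 0.234 for Prdm14, and Neat1 did not overlap with Sox21. In R they were 5.60 for Neat1, 2.53 for Prdm14, 2.27 for Sox21 and 0.432 for Carm1, and Sox21 did not overlap with Carm1. The place of Prdm14 in R rested on r1. With α-amanitin Carm1 had the highest mean of the members at both stages, at 1.37 in four-cell and 0.584 in two-cell embryos, overlapping with Prdm14 at 1.07 and 0.0948.

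**Figure D3:**
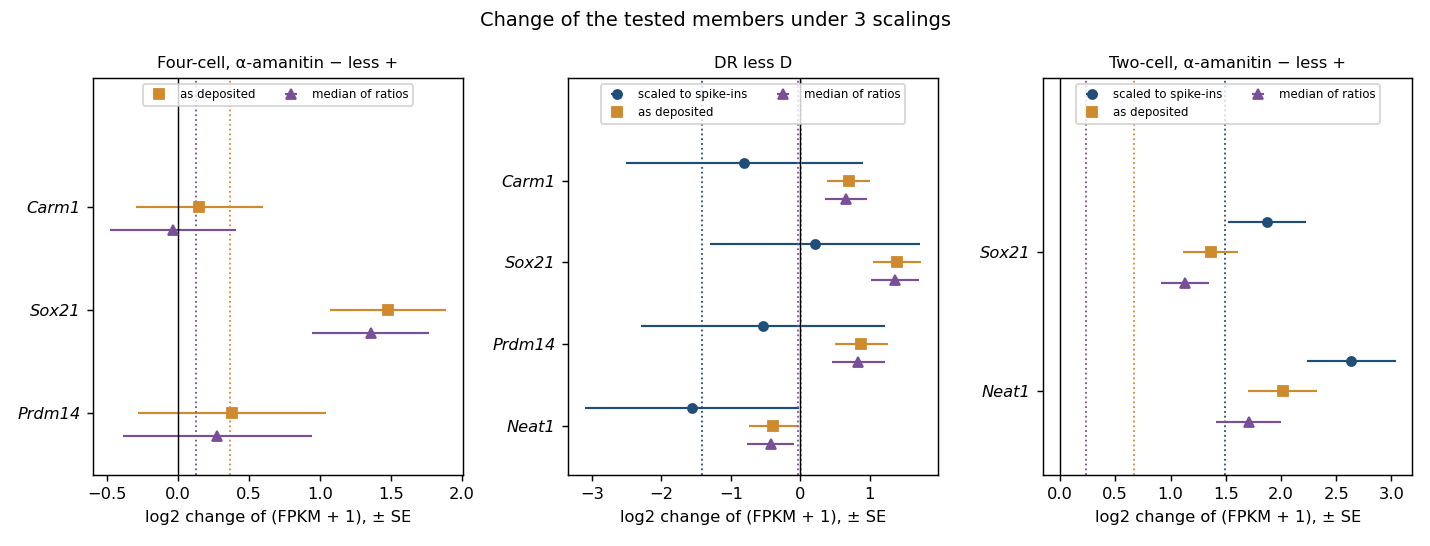
Log2 change of FPKM + 1 (x axis, points with SE) of each member that passed the filter (y axis), under each scaling; dotted lines in the same colours are the medians of all genes tested. Sox21 and Neat1 lay above 0 at the two-cell stage under every scaling shown, and in DR less D the members shifted between scalings together with the median of all genes, from 0.016 as deposited to −1.41 after spike-in scaling.

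The gene with the profile most like that of Sox21 was Spsb4, a SOCS box protein (Pearson r = 0.88 over 24 libraries, of log2(FPKM + 1) centred within each table). It was followed by Hand1, a bHLH factor of the trophoblast (0.87), and Bbx, an HMG box gene (0.86), among 9102 genes that passed the filter in every table. Libraries of a table share an experiment and its α-amanitin contrast, and r is a description. No other member passed the filter in every table.

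Other genes of the same families and pathways were read from lists, each beside the share of all genes tested. A gene could pass the filter through the group where it was high, in the lists as among all genes, so the counts are a description. At the two-cell stage that share was 71.4% higher and 1.63% lower after spike-in scaling, 38.9% and 8.51% as deposited, and 21.9% and 14.2% with median of ratios scaling. Among 17 other arginine methyltransferases and coactivator partners of CARM1, 12 were tested in four-cell embryos and 1 was higher without α-amanitin, 0 lower, where 11.1% of all genes were called higher, with a median log2 change of 0.11 against 0.37 for all genes tested. With median of ratios scaling 0 of 12 were called, where 7.69% of all genes were higher and 2.26% lower. That gene was Prmt6, which methylates histone H3, at 3.75 ± 1.43 against 0.433 ± 0.420 FPKM (adjusted p = 0.0344, limma), and with median of ratios scaling its adjusted p was 0.0523. The arginine methyltransferases Prmt1 (log2 change −0.23, adjusted p = 0.635, limma) and Prmt5 (0.41, 0.355) and the acetyltransferases Ep300 (0.55, 0.492) and Crebbp (−0.15, 0.857) did not pass, nor did the coactivator Ncoa3 (1.29, 0.0942). In two-cell embryos 11 of 15 were higher and 0 lower after spike-in scaling, 9 higher and 1 lower as deposited, and 5 higher and 3 lower with median of ratios scaling, the first near the 71.4% of all genes. Prmt6 (log2 change 3.51), Prmt9 (2.06) and Wdr77 (3.40), a partner of PRMT5, had the lowest adjusted p-values there (8.01e-06, 5.69e-05 and 0.000185, limma). Prmt1 (2.70, 0.000507), Prmt5 (2.63, 0.00134) and Ep300 (2.57, 0.000317) were called higher after spike-in scaling in limma. Ncoa3 went from 1.75 (adjusted p = 0.000822, limma) to −0.24 (0.578) with median of ratios scaling, and Crebbp from 0.90 (0.0535) to −1.15 (0.0272).

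Of 17 other SOX family genes, 5, Sox3 among them, were at 0 in every library of the four-cell α-amanitin experiment. Sox15 was at 616 ± 84.7 FPKM without and 253 ± 173 with α-amanitin at the four-cell stage (log2 change 1.59, adjusted p = 0.0892, limma), the only member of this list tested there. In two-cell embryos 4 of 5 tested were higher and 0 lower under each of the 3 scalings, where 71.4%, 38.9% and 21.9% of all genes were higher. Sox15 rose from 8.60 ± 11.4 to 133 ± 51.5 FPKM (log2 change 5.70, adjusted p = 5.59e-05, limma), and Sox4 (1.85, 8.67e-05) and Sox13 (1.67, 0.000418) rose too.

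Of 17 PRDM genes and partners of PRDM14, 4 were tested in four-cell embryos and 0 were called, Cbfa2t2, the corepressor that binds PRDM14, having a log2 change of 0.45 (adjusted p = 0.509, limma). In two-cell embryos 7 of 7 were higher after spike-in scaling, but 3 as deposited and 1 with median of ratios scaling, with 0 lower each time, beside 71.4%, 38.9% and 21.9% of all genes. The gene called under every scaling was Cbfa2t2, at 4.43 ± 1.50 against 1.06 ± 0.903 FPKM (log2 change 2.30, adjusted p = 0.000152, limma). Tet1, a DNA demethylase (2.07, 0.000679), and Prdm2 (1.27, 0.00423) were called after spike-in scaling in limma, and neither with median of ratios scaling (adjusted p = 0.0608 and 0.665).

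Cdx2 was at or near 0, and 18 genes of the trophectoderm network were read beside it. At the four-cell stage 5 of 10 tested were higher without α-amanitin and 0 lower, where 11.1% of all genes were called higher, and 3 were higher with median of ratios scaling, where 7.69% were. They were Wwtr1, the Hippo pathway coactivator TAZ (19.6 ± 3.11 against 4.66 ± 1.41 FPKM), Klf5 (30.2 ± 3.75 against 4.62 ± 4.52), the keratin Krt18 (9.69 ± 8.24 against 0.230 ± 0.399), the AP-2 factor Tfap2c (11.7 ± 6.88 against 1.91 ± 0.839) and the kinase Lats2 (1.99 ± 0.393 against 0.185 ± 0.320), all at n = 3 and with adjusted p from 0.0165 to 0.0397 in limma. Krt18 and Lats2 passed the filter through the untreated libraries alone, where they were high, so the count of 5 in 10 is a description. Tead4, the DNA-binding partner of TAZ and YAP, did not pass (log2 change 0.64, adjusted p = 0.267, limma). At the two-cell stage 7 of 9 were higher after spike-in scaling, and 4 were higher and 1 lower both as deposited and with median of ratios scaling, beside 71.4%, 38.9% and 21.9% of all genes higher. Klf5 (log2 change 3.50), Tfap2c (3.39) and Tead4 (3.25) were called under every scaling, whereas Gata3 had a log2 change of 0.05 (adjusted p = 0.901, limma) and Eomes had reads in only 3 of the 12 libraries, 21 of them in RAm3, 3 in NT2 and 1 in Am1.

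Of 10 pluripotency genes listed as partners of SOX2, 10 were tested at the four-cell stage and 4 were higher, 0 lower, without α-amanitin, with the same counts under median of ratios scaling, beside 11.1% and 7.69% of all genes called higher. Klf2 (log2 change 5.01, adjusted p = 0.00202, limma), Zfp42 (3.95, 0.00249) and Tfcp2l1 (2.07, 0.0222) had the lowest adjusted p-values. Pou5f1, encoding OCT4, at 11.2 ± 4.76 against 9.42 ± 3.54 FPKM, and Nanog, at 4.20 ± 1.90 against 3.17 ± 1.75, did not pass (adjusted p = 0.798 and 0.701, limma). At the two-cell stage 7 of 8 were higher after spike-in scaling (71.4% of all genes), 4 higher and 1 lower as deposited (38.9% and 8.51%), and 3 higher and 1 lower with median of ratios scaling (21.9% and 14.2%). Klf2 (log2 change 4.47, adjusted p = 5.34e-06, limma), Nr5a2 (3.46, 5.53e-05) and Sall4 (2.59, 0.000102) had the lowest adjusted p-values there. Nanog went from a log2 change of −0.14 (adjusted p = 0.716, limma) after spike-in scaling to −1.10 (0.0122) as deposited, and Pou5f1 was below the filter at 0.347 ± 0.400 without and 0.832 ± 0.834 with α-amanitin (SD, n = 6 each).

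Of 18 genes, the proteins of paraspeckles and Malat1, the noncoding gene next to Neat1, 17 were tested at the four-cell stage, and 2, Rbm14 (log2 change 2.12, adjusted p = 0.0195, limma) and Cpsf6 (1.67, 0.0399), were higher and 0 lower, near the 11.1% of all genes called higher, and 1 was with median of ratios scaling (7.69%). Nono (0.16, adjusted p = 0.830), Sfpq (1.05, 0.0888) and Pspc1 (0.66, 0.306), proteins of paraspeckles, did not pass in limma, nor did Malat1 (0.52, 0.504). At the two-cell stage 18 of 18 were higher after spike-in scaling, where 71.4% of all genes were, and 11 and 7 were as deposited and with median of ratios scaling (38.9% and 21.9% of all genes), with 0 lower. Tardbp (log2 change 4.43), Fubp1 (2.64) and Sfpq (2.98) were called under every scaling. Nono (2.86, adjusted p = 0.00019) and Pspc1 (1.26, 0.00206) were called after spike-in scaling in limma. Malat1 rose by 3.22 on the log2 scale (adjusted p = 0.00111, limma) but not under median of ratios scaling (1.01, adjusted p = 0.101). Between DR and D, 0 genes of the 6 lists were called.

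**Figure D4:**
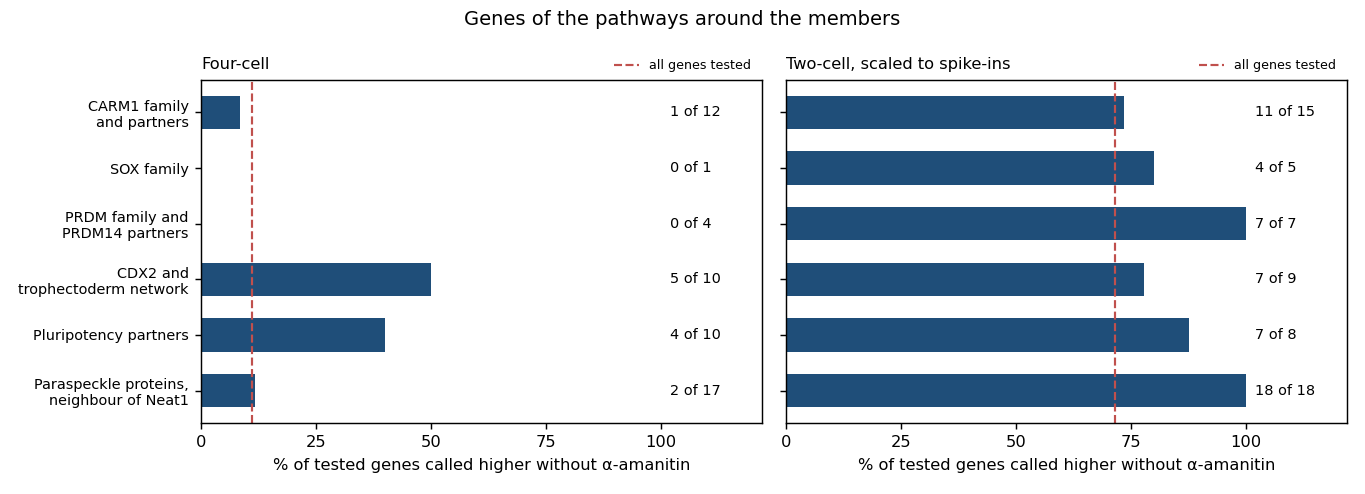
Share of tested genes of each list called higher without α-amanitin (bars, x axis in percent; counts at the right), by stage; the dashed line is the share among all genes tested, 11.1% at the four-cell stage and 71.4% at the two-cell stage. At the four-cell stage the trophectoderm and pluripotency lists stood at 5 of 10 and 4 of 10, and at the two-cell stage the lists lay between 11 of 15 and 18 of 18. Genes could pass the filter through the untreated libraries alone, so the shares are a description.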

How the data were processed

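RNA had been amplified from pooled embryos with ERCC spike-ins and made into Nextera XT libraries, which do not mark strand. Per the labels and the submitters' processing notes, reads were trimmed (Trimmomatic, Trim Galore, Cutadapt), mapped to mm10 with STAR and counted with featureCounts (versions not given in the sources used here), and the authors deposited FPKM for each gene and library. Reads per library were recovered from the FPKM steps and gene lengths: whole reads in the four-cell α-amanitin table, and steps of 0.01 read in the other tables, where reads had been divided between features.

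The members were matched by gene name, and members and gene lists were chosen with earlier results of these data known. Genes that reached 1 FPKM in 3 or more libraries were tested on log2(FPKM + 1) with limma 3.58.1 (mean-variance trend, R 4.3.3) and Benjamini-Hochberg adjustment over all genes tested, called at an adjusted p under 0.05. D and DR and two-cell FPKM were first scaled to the 19 and 47 spike-ins found in every library; the four-cell table lists 0 spike-ins. Single members also had a two-sided exact permutation test over libraries. At the two-cell stage this test shuffled both column sets together, and the main limma fit had no term for the set. A floor of 3 reads per library, which covers counting error only, set lower bounds of ratios. The scripts were tested on simulated data. Named besides the members were the fixed genes Prmt1, Prmt5, Ncoa3, Ep300, Crebbp, Sox15, Sox3, Cbfa2t2, Tfap2c, Tead4, Gata3, Eomes, Pou5f1, Nanog, Nono, Sfpq, Pspc1 and Malat1, up to 3 called genes with the lowest adjusted p in each list, and the 3 genes most like a member; Lats2, Gm4675 and Yipf2 were named after their values were seen. Lats2 has 2 rows in the four-cell tables, of which the longer was used. The alternatives tried were another pseudocount (0.1), no filter, a filter on mean FPKM, median of ratios scaling, no spike-in scaling, no trend, a replicate block and leaving out each library; those by two-cell column set were chosen after seeing the data. In all, 4 value columns of the replication table match no sample and were not used. Libraries are separate pools, and p-values measure the spread between them. Oryx embryos were not analysed here, and 1 further fixed gene is not reported here.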

Additional observations from a re-analysis of the deposited data

Results flagged for a closer look

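A total of 6 values of members stood far from the other 5 libraries of their two-cell group, among 10 groups examined. Chance marks about 1 in 20 groups of continuous values, a rate that does not hold where the other libraries are at or near 0 reads, as for Sox2 and Cdx2, so their number is not read as an excess. Without α-amanitin these were Carm1 in NT1 (1.44 FPKM), Sox2 in NT3 (0.449 FPKM, 7 reads) and Prdm14 in r1 (6.08 FPKM, 155 reads). With α-amanitin they were Sox2 in Am3 (0.493 FPKM, 6 reads), Cdx2 in RAm1 (0.0468 FPKM, 1 read) and Neat1 in Am3 (0.384 FPKM). The nearest other library stood at 0.670 for Carm1, 0.923 for Prdm14 and 0.0749 for Neat1.

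The α-amanitin change of Neat1 was larger in the R and RAm columns than in the NT and Am columns by 1.66 on the log2 scale (SE 0.57, adjusted p = 0.0241, limma interaction after spike-in scaling), where the median of all genes differed by 1.42 and 53.2% of genes were called. Neat1 lay 0.23 above that median, and 0.29 above the median as deposited and 0.78 above it with median of ratios scaling, distances with no test of their own. Whether fusion time, batch or another property set these columns apart was not tested, since the column names do not give it.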

How the results depend on the processing

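The two-cell calls of Sox21 and Neat1 kept their direction and side of the threshold under every alternative that could be run. Without any 1 library, the log2 change ran from 1.65 to 2.14 for Sox21 and from 2.37 to 2.86 for Neat1. With the NT and Am columns alone, and under the filter on mean FPKM, Sox21 fell below the filter and was not tested. The four-cell call of Sox21 was lost with a pseudocount of 0.1 (log2 change 3.54, adjusted p = 0.0954, limma) and with no filter (1.48, 0.192). It was also lost with the filter on mean FPKM (1.48, 0.0836) and with median of ratios scaling (1.36, 0.0714). The cause was not tested. Genes called in the four-cell experiment went from 1205 to 732 with a pseudocount of 0.1 and 284 with no filter, and ran from 63 (without S7) to 1493 (without S16) when 1 library was left out, being 93 without S15, 136 without S17, 529 without S18 and 707 without S8. Two-cell calls went from 12557 (12276 higher, 281 lower) to 8158 with no spike-in scaling (6694 higher, 1464 lower), 6211 with median of ratios scaling (3768 higher, 2443 lower) and 4317 with the NT and Am columns alone (12371 with the R and RAm columns alone), and from 11608 to 12693 when 1 library was left out. Four-cell calls split as 1093 higher and 112 lower, and as 760 and 223 with median of ratios scaling.

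Carm1 in four-cell embryos turned to −0.035 with median of ratios scaling and ran from −0.26 to 0.43 when 1 library was left out. Between DR and D, Carm1 turned to 0.70 with no spike-in scaling and 0.66 with median of ratios scaling, and Prdm14 to 0.88 and 0.84. These signs followed the median of all genes (−1.41 after spike-in scaling, 0.016 with none and −0.027 with median of ratios scaling): less it, Carm1 ran from 0.61 to 0.69 and Prdm14 from 0.86 to 0.88. Four-cell Carm1 likewise followed it (0.37 and 0.13). When 1 library was left out, the change ran from −1.96 to 0.077 for Carm1, from −1.64 to 0.068 for Prdm14 and from −0.70 to 1.28 for Sox21, and DR and D gave 0 to 1 call (1 without D5).

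The larger change of Neat1 in the R set was not called with no spike-in scaling (1.06) or with median of ratios scaling (0.95). Two-cell columns share numbers, but libraries of the same number had correlations of deviations of 0.0149 to 0.0654, and 8 of 12 libraries were closest to their own number. With the number as a replicate block, 11937 genes were called in place of 12557, Sox21 and Neat1 among them. No paired analysis was made for the four-cell and the DR and D comparisons, whose columns share fewer than 2 numbers. Some four-cell S numbers are adjacent across α-amanitin states, but no label calls them pairs and they were not read as such. Reads set the limit for Sox2 and Cdx2, at no more than 7 and 1 a library.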
